A study of Canis lupus familiaris with 4 samples.

Results

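Between 13 and 17 Mb of dog chromosome 14, the line resistant to doxorubicin listed many more captured methylated regions than the line it came from. The stretch surrounds ABCB1, which encodes P-glycoprotein, a membrane pump that carries doxorubicin out of cells. Its members are all rows of the deposited region tables that start above position 13000000 and up to position 17000000 and that are not assigned to ABCB1 or to its neighbour ABCB4. They numbered 40 of the 82247 regions listed for the parent line and 711 of the 123421 listed for the resistant line, a ratio of 17.8. The ratio was 9.30 when the longer list was cut by fold to the length of the other, and 7.63 when only folds above 5.28, the median over both lists, were kept. The limits of the stretch were chosen by the region numbers of both lists, so these numbers describe the choice and support nothing further.

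The study compared CLBL-1, a cell line from a canine diffuse large B-cell lymphoma, with CLBL-1 8.0, a line derived from it that resists doxorubicin and is grown in 8 µM of the drug. The labels give CLBL-1 no chemoresistance and no drug in its medium, and name lymph node as the tissue of origin. Genomic DNA was measured by MethylCap-seq, in which a methyl-binding domain protein captures methylated fragments that are then eluted and sequenced. Each line gave 2 libraries, from a low salt and a high salt eluate, and 1 deposited region list without replicates, so no difference below has a replicate check and no p-value is given. The sources used here do not say whether CLBL-1 8.0 is a single clone.

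DNA methylation in mammals sits mostly on cytosines followed by guanine. These CpG pairs are dense in CpG islands, which cover many promoters and are usually unmethylated in normal cells. Shores are the flanks of islands, while the bodies of active genes and much intergenic DNA are commonly methylated at sparse CpGs. The amount captured grows with the CpGs methylated and with the DNA copies present. More methylation per copy and more copies of the same DNA cannot be told apart in these tables, and this holds for every region number below.

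Read depth per library is unknown. The fold enrichment is the authors' deposited linear ratio for each region over a background that the sources used here do not name, and it is used to describe and rank regions. Coordinates are on CanFam3.1 as the tables give them. Of the 2 lists as wholes, 38.4% of the CLBL-1 8.0 regions met no CLBL-1 region and 8.99% of the CLBL-1 regions met no CLBL-1 8.0 region, where meeting means at least 1 bp in common.

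The excess ended inside the stretch on both sides. In windows of 100 kb, the run of windows in which CLBL-1 8.0 held at least 2 times its genome-wide mean reached from 13.1 to 16.7 Mb, where the limit was 10.6 regions per window. A fit of 2 Poisson levels to bins of 10 kb placed the ends at 13070000 and 16630000, a segment of 3.56 Mb. Inside that segment lay 39 of the 40 CLBL-1 members and 702 of the 711 CLBL-1 8.0 members. Counting every gene, ABCB1 and ABCB4 included, it held 40 and 761 regions. The fit assumes a step at each end, so it cannot show how abrupt the ends are. From 12900000 to 13600000 the CLBL-1 8.0 windows of 100 kb held 2, 7, 13, 19, 22, 23 and 29 regions in turn. From 16500000 to 16800000 they held 23, 13 and 2. The fitted edges are used below wherever a segment is named.

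The left edge fell between listed regions of GRM3, which encodes a metabotropic glutamate receptor, and listed regions of KIAA1324L. Gene ends were not used here, so whether this edge lies inside a gene is unknown. The last CLBL-1 8.0 region before it lay in a GRM3 intron at 13044381 to 13044695, with a fold of 6.65. The first region after it lay in a KIAA1324L intron at 13079999 to 13080427, with a fold of 8.88, and the starts of these neighbours were 35618 bp apart. Within 300 kb, CLBL-1 8.0 had 8 regions outside the edge and 50 inside it, against 2 and 2 in CLBL-1. Over 1 Mb the numbers were 21 and 227 in CLBL-1 8.0, against 8 and 9 in CLBL-1. The change of density across this edge was therefore seen in the CLBL-1 8.0 list, while the CLBL-1 list held about the same on both sides.

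The right edge ran through the body of CDK14, a cyclin-dependent kinase that pairs with cyclin Y and phosphorylates the Wnt co-receptor LRP6. The last region inside lay in a CDK14 intron at 16628284 to 16628584 (fold 3.85) and the next in another at 16699178 to 16699500 (fold 6.01), 70894 bp further on. Within 300 kb, CLBL-1 8.0 had 84 regions inside the edge and 7 outside it, against 3 and 1 in CLBL-1. Over 1 Mb the numbers were 216 and 21, against 13 and 5 in CLBL-1, so here the CLBL-1 list was also denser inside. From the start of CDK14 to the edge, CLBL-1 8.0 listed 92 regions over 343.9 kb, or 26.7 per 100 kb, with a median fold of 4.03. From the edge to its last listed region, the same gene had 8 regions over 379.8 kb, or 2.11 per 100 kb, with a median fold of 6.06. CLBL-1 had 3 and 1 regions in those pieces of the gene.

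**Figure D1:**
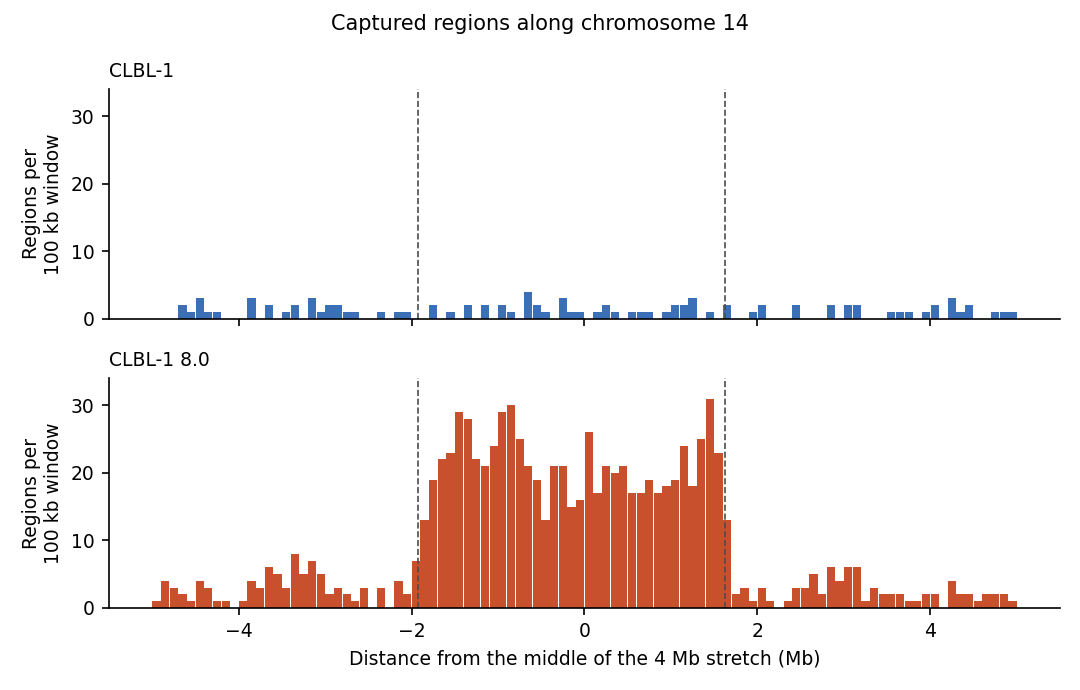
Captured regions of any gene, ABCB1 and ABCB4 included, per 100 kb window along chromosome 14, against the distance in Mb from the middle of the 4 Mb stretch. The upper plot is CLBL-1, the lower CLBL-1 8.0, and the dashed lines are the fitted edges. The 35 full windows between them hold 13 to 31 CLBL-1 8.0 regions and 0 to 4 CLBL-1 regions.

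Between the edges the excess was continuous. The 35 full windows of 100 kb held from 13 to 31 regions in CLBL-1 8.0, with a median of 21, and from 0 to 4 in CLBL-1, with a median of 1. The lowest CLBL-1 8.0 window was thus above the highest CLBL-1 window. The variance of the CLBL-1 8.0 numbers over their mean was 1.01, where a Poisson count of a single level gives 1. In the flanks from 10 to 13 and 17 to 20 Mb, 60 windows held from 0 to 8 regions in CLBL-1 8.0, with a mean of 2.65, and from 0 to 3 in CLBL-1, with a mean of 0.90. Of the 40 windows of the whole stretch, 39 had at least 2 times as many CLBL-1 8.0 as CLBL-1 regions, and the same 39 at least 5 times, while 15 held no CLBL-1 region. Genome-wide, 44.2% of the windows with a region in either list had at least 2 times as many in CLBL-1 8.0. Since the stretch was chosen on these numbers, the comparison is a description.

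Block means were lower in the middle of the segment than on either side. The mean per window in CLBL-1 8.0 was 23.5 from 13.1 to 14.4 Mb, 18.6 from 14.4 to 16 Mb and 23.3 from 16 to 16.6 Mb, with CLBL-1 means of 1.08, 1.00 and 1.33 in the same blocks. The blocks were chosen after the plot was seen, and the middle one holds ZNF804B. Within the blocks, the variance over the mean in CLBL-1 8.0 was 0.967, 0.507 and 0.937. Because the blocks were picked from the plot, they cannot show more than 1 level. Nor is the 1.01 over all full windows evidence of a single level. Where ABCB1 and ABCB4 lie, from 13542640 to 13856083, CLBL-1 8.0 had 26.5 regions of any gene per 100 kb, within the range of the other windows, against 0.638 in CLBL-1. The rows left out for these genes numbered 1 in CLBL-1 and 59 in CLBL-1 8.0.

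Listed regions followed each other at short distances. The median distance from the start of a region to the next was 3980 bp in CLBL-1 8.0 (95% interval of the median 3680 to 4370, 707 neighbouring pairs), with an interquartile range of 2086 to 6699 bp. It was 57014 bp in CLBL-1 (38394 to 126985, 38 pairs). On the rest of chromosome 14 the medians were 8581 bp in CLBL-1 8.0 and 9663 bp in CLBL-1, and in the flanks 24314 and 58640 bp. The CLBL-1 spacing in the stretch was therefore close to that of its flanks, and the CLBL-1 8.0 spacing was not. Intervals of medians and shares here cover counting error alone, since neighbouring regions are not independent.

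Long empty runs were nearly missing. Inside the segment, 1 of 698 CLBL-1 8.0 distances was over 20 kb, or 0.143%, against 29.1% on the rest of chromosome 14 and 54.1% in the flanks. The longest gap without a listed region was 21530 bp, from 13155925 to 13177455 in KIAA1324L, followed by a gap of 17515 bp between genes and another of 16640 bp. The share of neighbours under 1 kb apart was 8.06%, against 6.35% on the rest of the chromosome. With ABCB1 and ABCB4 included, listed regions covered 10.2% of the segment in CLBL-1 8.0 and 0.784% in CLBL-1, against 2.25% and 1.58% of the rest of chromosome 14.

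All 40 CLBL-1 members met exactly 1 CLBL-1 8.0 region each, so no region was listed for CLBL-1 alone. In the whole CLBL-1 list 8.99% met none, in the flanks 0 of 54 and from 3 to 9 Mb 3 of 193. Full overlap is therefore not particular to the stretch. Of the 711 CLBL-1 8.0 members, 671 met no CLBL-1 region, or 94.4% (Wilson 95% interval 92.4 to 95.8). The background for that share is the 38.4% of the whole CLBL-1 8.0 list, but the stretch was chosen for such an excess.

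The members named 31 genes in CLBL-1 8.0 and 16 of these in CLBL-1, as the tables assign regions to genes. All 31 had at least 2 times as many regions in CLBL-1 8.0, against 43.3% of the named genes of the whole tables, and 13 gained 10 or more, against 1.65%. No gene had fewer regions in CLBL-1 8.0, where the whole tables had 9.41%. These 13 genes held 449 of the 527 CLBL-1 8.0 members with a gene. Another 184 members had no gene, of which 1 is a row with displaced cells at 14313311 to 14313937. Of the 31 names, 23 matched the dog RefSeq annotation on UU_Cfam_GSD_1.0, 17 as protein-coding genes and 6 as long non-coding RNAs.

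**Figure D2:**
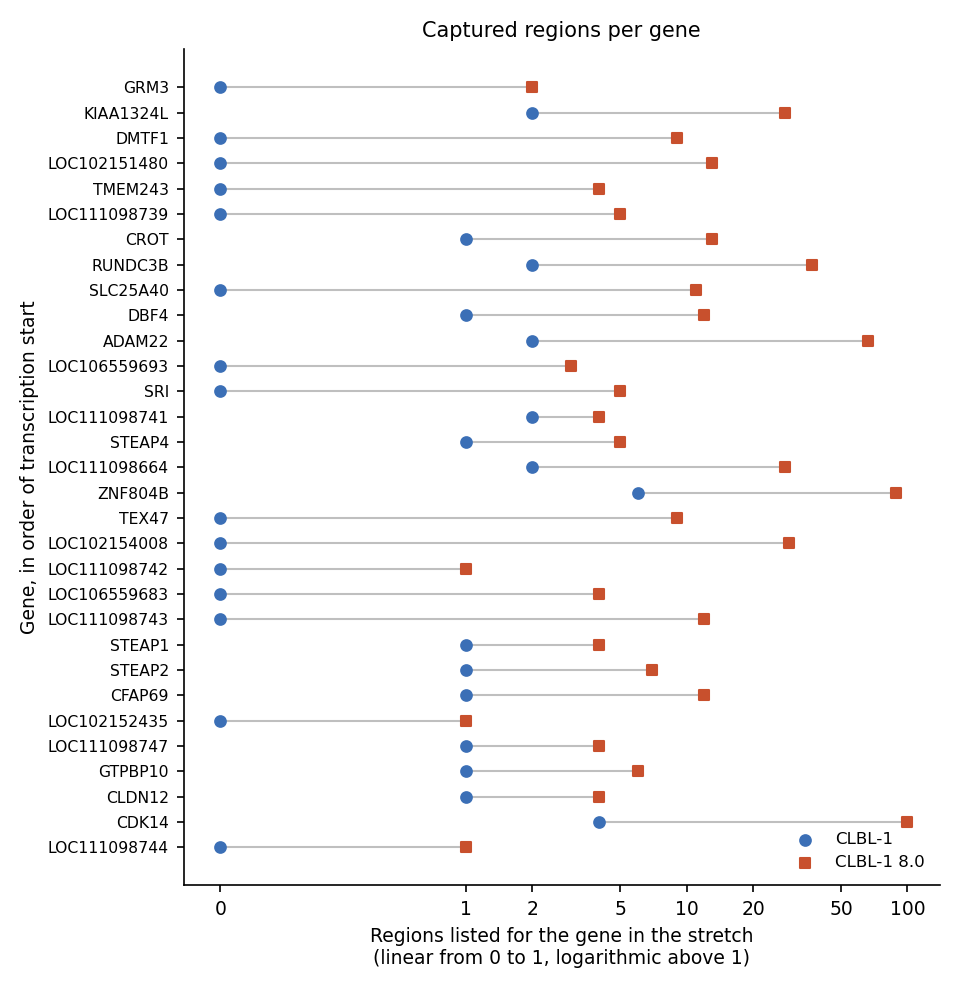
Regions of the stretch per gene in CLBL-1 (circles) and CLBL-1 8.0 (squares), with genes from top to bottom in the order of their transcription starts. The axis is linear from 0 to 1 and logarithmic above. Every square lies to the right of its circle, up to 99 against 4 in CDK14.

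The highest numbers were those of CDK14 and ZNF804B. CDK14 went from 4 to 99 members, of which 97 were intronic, and ZNF804B, a zinc finger gene, from 6 to 89, of which 85 were intronic. Among other genes of cell division and transcription, DBF4, the regulatory subunit of the CDC7 kinase that fires replication origins, went from 1 to 12. DMTF1, a Myb-like transcription factor that binds cyclin D, went from 0 to 9 with a median fold of 7.32. Of the 7 genes listed for this role, these 4 had members, with 11 CLBL-1 and 209 CLBL-1 8.0 regions. The list, like the other role lists, was drawn up with earlier results of these data known, so the numbers describe its genes.

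The STEAP genes encode a family of membrane proteins of which most members reduce iron and copper. All 3 genes listed had members, 3 in CLBL-1 and 16 in CLBL-1 8.0. Each had a single CLBL-1 region, at or next to its start. STEAP4 went from 1 to 5 members, STEAP1 from 1 to 4 and STEAP2 from 1 to 7. Of the 7 STEAP2 members in CLBL-1 8.0, 3 were intronic and 2 coding.

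Genes of transport, calcium and lipid handling lie on both sides of ABCB1. CROT, a peroxisomal carnitine acyltransferase, went from 1 to 13 members. SRI, the gene of sorcin, which binds calcium, went from 0 to 5. SLC25A40, a mitochondrial carrier gene, went from 0 to 11, all without a CLBL-1 counterpart and 10 of them intronic. GTPBP10, which acts in the assembly of mitochondrial ribosomes, went from 1 to 6. Of the 5 genes listed for transport, 3 had members (1 and 29), and of the 3 listed for mitochondria 2 had members (1 and 17), SLC25A40 counting in both.

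Genes of neurons and of cell contacts were also inside. ADAM22, a catalytically inactive ADAM protein that acts at synapses as the receptor of LGI1, went from 2 to 66 members, 60 of them intronic. GRM3 had 2 members in CLBL-1 8.0 and none in CLBL-1, both outside the segment. CLDN12, a claudin gene of tight junctions, went from 1 to 4. CFAP69, known for its part in sperm flagella, went from 1 to 12, and TEX47, a testis-expressed gene, from 0 to 9.

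Genes whose roles are less settled behaved likewise in number. KIAA1324L, now named ELAPOR2, went from 2 to 28 members with the highest median fold of the 13 genes with 10 or more (6.01). RUNDC3B went from 2 to 37 and TMEM243 from 0 to 4. Among the transcripts named by locus only, LOC102154008 went from 0 to 29, LOC111098664 from 2 to 28, LOC102151480 from 0 to 13 and LOC111098743 from 0 to 12. LOC111098739 went from 0 to 5, LOC111098741 from 2 to 4, LOC111098747 from 1 to 4, LOC106559683 from 0 to 4 and LOC106559693 from 0 to 3. LOC111098742, LOC102152435 and LOC111098744 had 1 member each in CLBL-1 8.0 and none in CLBL-1.

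Density differed less between genes than number did. Over the span of their own members, the 13 genes with 10 or more held from 16.2 regions of any gene per 100 kb in CLBL-1 8.0 (CDK14, which runs past the edge) to 28.9 (ADAM22). SLC25A40 (28.5) and DBF4 (28.4) were close to ADAM22, although each spans under 50 kb. CLBL-1 had from 0 to 2.37 regions per 100 kb over the same spans. In the RefSeq order from GRM3 to CDK14, 24 protein-coding genes are annotated and 17 had a member under the same symbol. ELAPOR2 was listed as KIAA1324L, while FAM237B and 3 genes named by locus only (LOC119876970, LOC100683619 and LOC111098653) had no member under those names.

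Promoter regions were those that the tables flag within 3000 bp upstream of a transcription start. In CLBL-1, 13 members in 11 genes carried the flag, and in CLBL-1 8.0, 32 members in 24 genes. Counting only regions that start within 1000 bp upstream, the genes numbered 9 and 10. Both lists had a promoter region in 10 of these genes. In 14 genes it was listed in CLBL-1 8.0 only, against 12.6% of the named genes of the whole tables. In CLDN12 it was listed in CLBL-1 only, against 3.50%. That CLDN12 region, at 16285769 to 16286446 with a fold of 16.5, met a CLBL-1 8.0 region of fold 11.1 that the table assigns to CDK14, whose start lies close by (16286030 and 16286052). The CLDN12 and CDK14 entries are thus the same DNA under different names.

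In 12 of the 14 genes no promoter region met a CLBL-1 region. The exceptions were CDK14 and STEAP4, whose CLBL-1 region at 14344848 to 14345698 carries no promoter flag. Of the 32 promoter regions of CLBL-1 8.0, 19 met no CLBL-1 region, against 24% of the promoter regions of its whole list. The highest folds among these 19 were those of SRI (11.3, 1015 bp upstream), DMTF1 (10.3, 1023 bp upstream) and LOC102151480 (10.3, 2151 bp upstream). SRI and DMTF1 had theirs in a shore. DBF4 had a pair, of folds 6.005 in a shore and 3.44 outside. TMEM243 had the lowest, at 2.91 and 2.19. Of the 10 CLBL-1 8.0 members flagged on a transcription start, against 7 in CLBL-1, that of RUNDC3B (fold 3.03) and that of LOC106559683 (6.33) had no CLBL-1 counterpart.

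The longest members of both lists lay at transcription starts. STEAP2 had the longest CLBL-1 member, of 1693 bp at 16118372 to 16120064, and it measured 2047 bp in CLBL-1 8.0. CFAP69 had the longest CLBL-1 8.0 member, of 2372 bp at 16153139 to 16155510, against 1306 bp in CLBL-1. STEAP1 followed in both lists, with 1251 and 1933 bp. CLBL-1 8.0 gave these regions lower folds, of 4.42 against 8.04 for STEAP2, 4.61 against 11.0 for CFAP69 and 6.63 against 10.7 for STEAP1. Each covers the transcription start and lies in a shore.

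By location, the CLBL-1 8.0 members lay mostly away from CpG islands. Outside islands and shores lay 687 of 711, or 96.6% (95.03 to 97.7), against 68.3% of the CLBL-1 8.0 regions on the rest of chromosome 14, a difference of 28.4 percentage points (Newcombe 95% interval 25.9 to 30.6). The stretch from 3 to 9 Mb of the same chromosome, which also holds more CLBL-1 8.0 regions (619 against 193), had 84.8%, lower by 11.8 points (8.75 to 15.04). Among regions without a CLBL-1 counterpart, the share was 98.7% in the stretch and 92.7% on the rest of the chromosome, and the difference shrank to 5.97 points (4.13 to 7.79). From 3 to 9 Mb it was 96.3% among such regions, lower by 2.40 points (0.542 to 4.73), so this makeup is largely shared with that stretch.

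Introns held 441 members, or 62.0%, against 47.0% on the rest of chromosome 14, a difference of 15.05 points (10.9 to 19.1). Against the stretch from 3 to 9 Mb, with 57.5%, the difference of 4.51 points had an interval that includes 0 (-0.763 to 9.77). Among regions without a CLBL-1 counterpart the intron shares of these 2 stretches were 63.6% and 62.9%. Intergenic DNA held 183 members, or 25.7%, against 29.1%, where the interval of the difference also includes 0 (-7.01 to 0.393). The upstream class was less frequent than on the rest of the chromosome (5.49% against 10.1%), as was coding sequence (2.39% against 4.92%), with differences of -4.66 points (-6.60 to -2.41) and -2.53 points (-3.84 to -0.910). In the flanks the coding share was 2.52%. Against 3 to 9 Mb the upstream difference was -3.08 points (-5.94 to -0.332), while the coding interval included 0 (-3.89 to 0.117). Among regions without a CLBL-1 counterpart, the coding interval against the rest of the chromosome included 0 (-2.49 to 0.772). The upstream interval against 3 to 9 Mb among such regions did too (-5.00 to 0.541). Another 17 members lay downstream of genes, 10 in 3′ and 3 in 5′ untranslated regions.

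**Figure D3:**
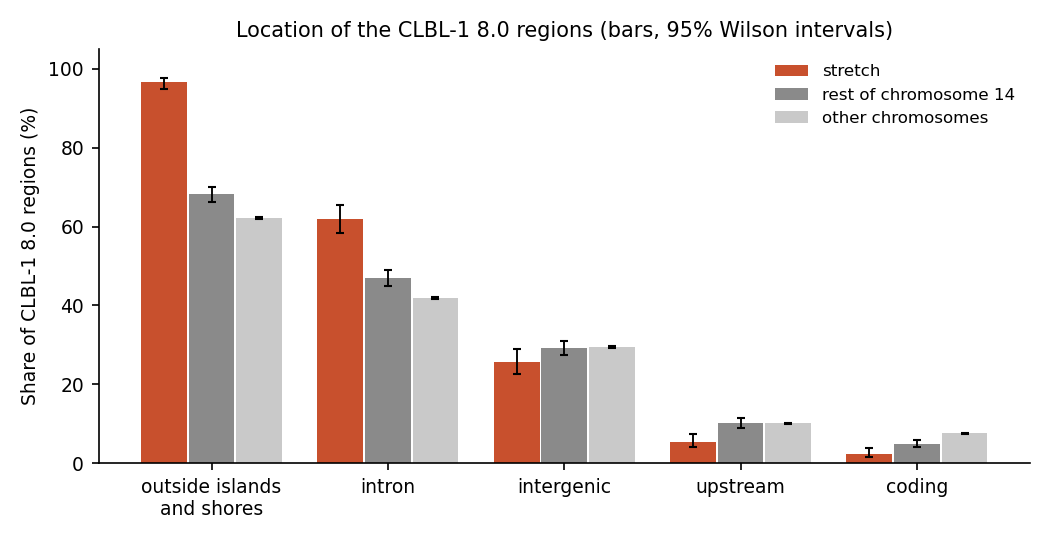
Share of CLBL-1 8.0 regions, in percent, by location class in the stretch (711 members), on the rest of chromosome 14 (2316) and on the other chromosomes (120335). Bars are shares and lines their Wilson 95% intervals. The stretch has the highest shares outside islands and shores (96.6%) and in introns (62.0%).

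The 40 CLBL-1 members had another makeup. Of these, 25 lay outside islands and shores, or 62.5% (47.0 to 75.8), 14 in a shore and 1 in an island, the KIAA1324L promoter at 13245765 to 13246233 with a fold of 12.8. Promoter regions made up 32.5% of them (20.1 to 48.0), against 4.50% of the CLBL-1 8.0 members (3.21 to 6.28). Introns held 13, intergenic DNA 11 and upstream DNA 13. The CLBL-1 8.0 list kept all of these regions and placed the others mainly between them, in introns and intergenic DNA.

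Annotated enhancers held 1 CLBL-1 member and 10 CLBL-1 8.0 members. The latter were 1.41% of the members (0.766 to 2.57), against 3.76% of the CLBL-1 8.0 regions on the rest of chromosome 14 (3.06 to 4.61). In the flanks the share was 3.14% (1.35 to 7.15, 5 of 159), an interval that overlaps that of the members. From 3 to 9 Mb it was 4.68% (3.28 to 6.65). The left-out ABCB1 and ABCB4 rows of the same stretch had 7 of 59 in enhancers (11.9%, 5.87 to 22.5). The share of the members is given without these rows. Of the 10, 4 lay close together between genes from 13624610 to 13633014, with folds of 8.98, 3.25, 2.45 and 4.70, and the last of these met the CLBL-1 enhancer region (13632766 to 13633608, fold 15.7). Another 4 lay from 13428931 to 13441476, 3 of them assigned to LOC111098739. The others were an intergenic region at 14444598 to 14445148 (3.15) and one in a ZNF804B intron at 15227805 to 15228129 (2.65). Of the 10, 9 met no CLBL-1 region, against 38.5% of the enhancer regions of the whole CLBL-1 8.0 list.

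The CLBL-1 8.0 members had low fold enrichments. Their median was 4.36 (4.12 to 4.61), with an interquartile range of 3.09 to 6.56 and extremes of 2.06 and 15.8. On the rest of chromosome 14 the median was 5.38, which gives a ratio of 0.811, and in the flanks it was 6.01. Folds under 4 made up 44.4% of the members (40.8 to 48.1), against 18.3% on the rest of the chromosome and 5.66% in the flanks. The share was 28.3% on other chromosomes, and 55.9% in the left-out ABCB1 and ABCB4 rows. All 316 members with such a fold lay inside the segment and met no CLBL-1 region. Of CLBL-1 8.0 regions with such a fold, 195 of 423 on the rest of chromosome 14 met no CLBL-1 region. On other chromosomes the numbers were 12494 of 34046. The stretch was chosen for an excess of CLBL-1 8.0 regions, so this comparison is a description.

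The members listed in CLBL-1 8.0 alone were longer than such regions elsewhere, although their folds were lower. The members without a CLBL-1 counterpart had a median length of 404 bp (392 to 415), against 313 bp (308 to 319) for such regions on the rest of chromosome 14, 327.5 bp in the stretch from 3 to 9 Mb and 314 bp on other chromosomes. Their median fold was 4.20 (3.96 to 4.39), against 5.06 (4.89 to 5.06) on the rest of chromosome 14. Within the stretch they had lower folds and shorter lengths than the 40 members with a counterpart, whose medians were 8.23 and 1018 bp. Over all members the median length was 412 bp, against 420.5 bp on the rest of the chromosome, where 1235 of the 2316 regions met a CLBL-1 region and had a median of 637 bp.

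Introns of ZNF804B held 3 of the 5 highest CLBL-1 8.0 folds, at 15177201 to 15177965 (15.8), 14892723 to 14893234 (14.4) and 15120242 to 15120838 (14.02). The remaining ones were intergenic, at 15313771 to 15314319 (14.2) and 15911936 to 15912390 (12.6). The region of fold 15.8 met a CLBL-1 region of fold 15.1, and the other 4 met none. In CLBL-1 the highest fold was that of the CROT promoter, in a shore at 13473397 to 13473904 (19.96), followed by intergenic regions at 15936939 to 15937524 (19.6), 14383242 to 14383861 (17.97), 14704752 to 14705732 (17.5) and 14426756 to 14427484 (17.3). The CLBL-1 median in the stretch was 12.8 (10.3 to 15.1), and 12.8 in its flanks, against 6.95 on the rest of chromosome 14.

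Many folds of each list lie within 3e-05 of a whole multiple of a fixed step, 0.339 in CLBL-1 and 0.317 in CLBL-1 8.0. MACS2 divides the pileup by the background after adding 1 to each. If the authors kept that setting, which is assumed here, a fold on the step rests on a genome-wide background (1.95 fragments in CLBL-1, 2.16 in CLBL-1 8.0) and a fold off the step on a local one. In the CLBL-1 8.0 list, none of the 761 regions of the segment had a fold on the step, ABCB1 and ABCB4 included, which allows a share of up to 0.394%. Within 1 Mb outside the left edge it was 14 of 21 (66.7%, 45.4 to 82.8) and outside the right edge 15 of 21 (71.4%, 50.04 to 86.2). The share was thus 0 on the inner side of the edges at which the region numbers differ.

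**Figure D4:**
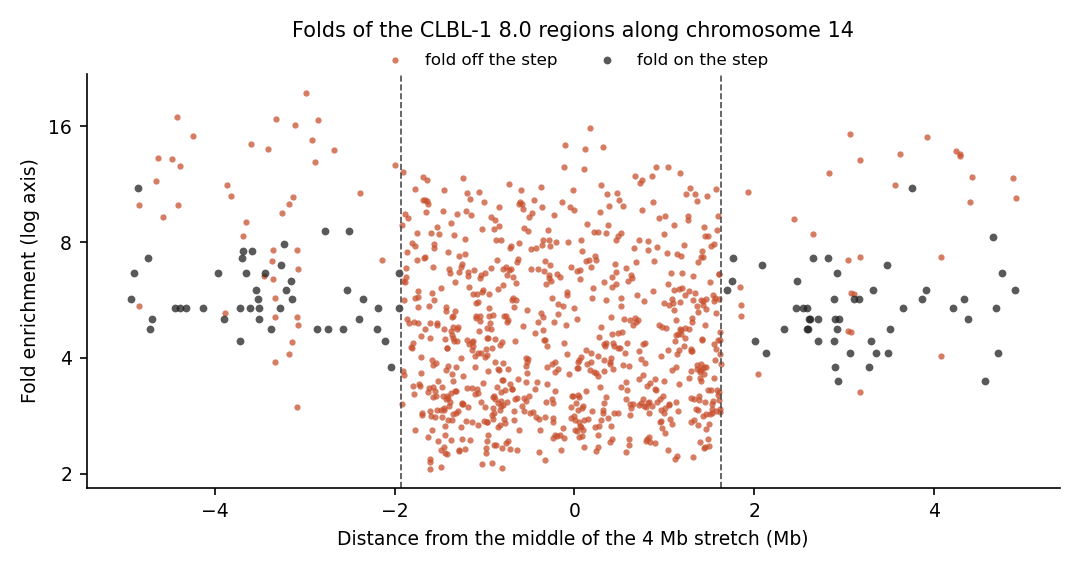
Fold enrichment of each CLBL-1 8.0 region (log axis) along chromosome 14, against the distance in Mb from the middle of the stretch, ABCB1 and ABCB4 rows included. Dark points are folds on the step of 0.317, the others are off it, and dashed lines are the fitted edges. No dark point lies between the edges, where folds reach down to 2.06.

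In CLBL-1 the same segment did have folds on the step. There they made up 11 of 40, or 27.5% (16.1 to 42.8), an interval that includes the 22.3% of the rest of chromosome 14. All members of CLBL-1 8.0 together had 5 of 711 on the step, or 0.703%, each of them outside the segment, against 33.9% on the rest of chromosome 14, 28.9% from 3 to 9 Mb and 24.7% on other chromosomes. The difference from the rest of the chromosome was -33.1 points (-35.1 to -31.0), and from 3 to 9 Mb -28.2 points (-31.9 to -24.7). Inside CDK14, 0 of the 92 regions before the right edge and 4 of the 8 after it were on the step.

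A share near 0 is also found where regions are dense in both lists. Elsewhere in the genome, 125 windows of 1 Mb held 150 or more CLBL-1 8.0 regions, and the share on the step had a median of 3.11% there (0 to 15.7), with 7 windows at 0. Those windows held at least 70 CLBL-1 regions, with a median of 162. Of their CLBL-1 8.0 regions, a median of 41.0% lay outside islands and shores, with a range of 5.69% to 92%. The 4 windows of the stretch held 7, 15, 8 and 11 CLBL-1 regions and 208, 210, 193 and 159 CLBL-1 8.0 regions, with 94.7% to 99.5% outside islands and shores. Among 152 windows with 50 or more CLBL-1 8.0 regions, at least 80% of them outside islands and shores, the median share on the step was 31.2% (0 to 72.5). The limit of 50 is below the 159 to 210 regions of the stretch windows, so this set is not matched to them in density.

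The 40 regions listed in both lines had lower folds in CLBL-1 8.0. For CLBL-1 8.0 over CLBL-1, the log2 fold ratio had a median of -0.62 (-0.79 to -0.49), which is 1.54 times lower, and the fold was lower in 31 of the 40, or 77.5%. That share is close to the 77.4% of all one-to-one pairs of the tables, so the direction is not particular to the stretch. The median was -0.23 (-0.25 to -0.21) on the rest of chromosome 14, -0.24 in the flanks and -0.27 on other chromosomes. Folds of the 2 lists may rest on different backgrounds, which may also differ between places, so neither the ratios nor their differences are read as a change in methylation.

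While the folds were lower, the regions were longer. The median length of the 40 went from 720.5 bp in CLBL-1 to 1018 bp in CLBL-1 8.0, and 38 of the 40 were longer there. On the rest of chromosome 14 the medians were 596 and 634 bp, and 639 of 1157 pairs were longer. From 3 to 9 Mb they were 507.5 and 624.5 bp, and 143 of 184 pairs were longer. In CLBL-1, 11 of the 40 folds were on the step, and in CLBL-1 8.0 none was. From 3 to 9 Mb, 55 of the 184 pairs were on the step in CLBL-1 and 4 in CLBL-1 8.0, and on the rest of chromosome 14 these numbers were 261 and 149 of 1157. Longer shared regions and fewer folds on the step in CLBL-1 8.0 were thus also found from 3 to 9 Mb.

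The ratios in and outside islands and shores had overlapping intervals. In islands or shores, 14 of 15 had a lower fold in CLBL-1 8.0, with a median log2 ratio of -0.68 (-0.86 to -0.49). Outside, 17 of 25 did, with a median of -0.54 and an interval of -0.83 to 0.06. On the rest of chromosome 14 the fold was lower in CLBL-1 8.0 in 84.4% of the pairs in islands or shores and in 67.3% of those outside, against 93.3% and 68.0% in the stretch. The lowest ratio was -1.74, at the intergenic enhancer region 13632766 to 13633608, where the fold went from 15.7 to 4.70. The highest was 1.51, at a ZNF804B intron region at 14884009 to 14884289, where it went from 4.41 to 12.6. CROT (-1.19), STEAP4 (-1.19) and CFAP69 (-1.25) had low ratios near their starts, whereas GTPBP10 (0.03) and ADAM22 (-0.09) had similar folds there in both lists.

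**Figure D5:**
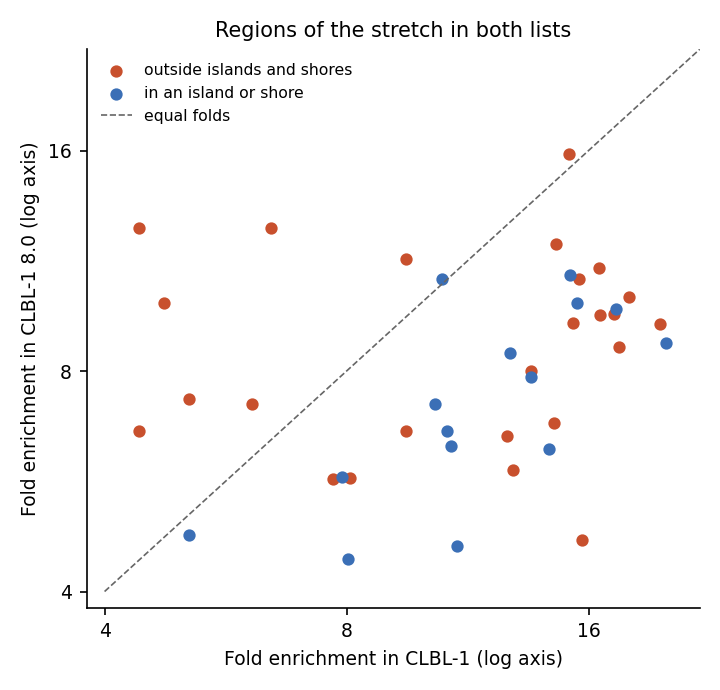
Fold enrichment of the 40 regions of the stretch found in both lists, CLBL-1 on the horizontal and CLBL-1 8.0 on the vertical axis, both logarithmic. Colours mark regions in an island or shore (15) and outside (25), and the dashed line is equality. Of the 40 points, 31 lie below the line.

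At the limits of the rule, the nearest regions lay well apart. The last CLBL-1 8.0 region left out on the lower side was a GRM3 region at 12999048 to 12999974 (fold 12.7) and the first kept lay at 13043522 to 13043967 (5.38), also in GRM3. On the upper side the last kept was a CDK14 region at 16926235 to 16927090 (10.8) and the first left out another at 17009484 to 17009839 (4.43). In CLBL-1 the corresponding regions were those of GRM3 at 12999066 to 12999972 (14.2), KIAA1324L at 13244582 to 13245261 (10.3), CDK14 at 16926256 to 16927050 (15.2) and FZD1 at 17045811 to 17046551 (3.30). FZD1, the gene of a Wnt receptor, had no region in the stretch, so that of the 2 Wnt genes listed only CDK14 had members.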

How the data were processed

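MethylCap-seq of genomic DNA from CLBL-1 and CLBL-1 8.0 gave 4 libraries and 1 deposited region table per line. BWA, MACS2 and the CanFam3.1 assembly are named in the submitters' processing notes, with settings and versions not given in the sources used here. Nor do they say whether both eluates were pooled for calling. Each row holds a region, its gene, location class, flags and the authors' deposited fold enrichment, a linear ratio.

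Positions were read as 1-based and closed, which the tables do not state. Members and lists were chosen with earlier results of these data known. Every gene of a member row is named. Genes with 10 or more CLBL-1 8.0 members, a CLBL-1 member or a flagged member are described, with the 5 highest folds and 3 longest regions of each list. Regions met when they shared at least 1 bp. Shares carry Wilson and differences Newcombe 95% intervals (statsmodels 0.14.6), and medians carry binomial rank intervals (scipy 1.17.1). A share allowed by a count of 0 is 3 counts of the total. Edge and step routines were checked on artificial data with known answers. Python 3.11.15, numpy 2.4.6, pandas 2.3.3 and matplotlib 3.10.9 were used. RefSeq on UU_Cfam_GSD_1.0 served for names and gene order alone. Sequences of regions and the authors' summary sheets were not used here.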

Additional observations from a re-analysis of the deposited data

How the results depend on the processing

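Of 40 alternative settings, 23 left the value within its 95% interval, a count or ratio of counts within 1.5 times, or an edge within 100 kb, and 17 moved it. The ratio of region numbers fell from 17.8 to 7.63 among regions above the pooled median fold of 5.28 (35 and 267 members) and to 9.30 in lists cut to equal length (40 and 372). The difference in the share outside islands and shores was 34.4 points against other chromosomes, 5.97 among regions without a CLBL-1 counterpart and 24.02 above the median fold. The intron difference was 20.2 points against other chromosomes and 8.50 without a counterpart. The difference in the share on the step was -24.0 points against other chromosomes, -58.0 without a counterpart and -46.6 outside islands and shores. The share without a counterpart was 86.5% above the median fold. Spacing was 3509 bp from end to start and 4409 bp with regions under 500 bp apart merged. The ratio of median folds was 0.861 against other chromosomes, and that of median lengths, 0.9798 as reported, turned to above 1, with 1.14 outside islands and shores and 1.29 without a counterpart. Genes with a promoter region within 1000 bp numbered 9 in CLBL-1 and 10 in CLBL-1 8.0, against 11 and 24. Fewer regions enter most of these settings by construction, and the cause of the other moves was not tested. The step alternatives, the segment alone and the subsets of pairs were chosen after seeing the data. No paired analysis was possible because each line has 1 region list and no result comes from a test. Depth is unknown, the eluates could not be separated, and a region missing from a list is not evidence of unmethylated DNA.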

Other observations

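Runs of windows of 100 kb in which CLBL-1 8.0 held at least 2 times its genome-wide mean number of regions were also looked for on all chromosomes. There were 259 such runs of 5 or more windows, with a median ratio of CLBL-1 8.0 to CLBL-1 regions of 1.35. The run of the stretch, of 36 windows with 40 and 757 regions, had a ratio of 18.9, and the next highest, on chromosome 6, had 5.47 (19 and 104 regions in 7 windows). The stretch was chosen by the region numbers of both lists, so its rank describes that choice and is no further support. In length the stretch did not stand out, since 10 runs were longer, up to 61 windows.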
